A study of Mus musculus with 12 samples.

Results

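Hox genes encode homeodomain transcription factors that give cells of the body axis and the limbs their positional identity. The mouse genome holds them in 4 clusters, Hoxa to Hoxd, and members that occupy the same place in different clusters form a paralog group, numbered from 1 to 13. The genes were chosen by name alone: every gene of the deposited count table whose symbol is Hox, a cluster letter from a to d and a number was taken, which gave 39 of 30154 genes. Of these 39, 32 passed the filter on low counts and were tested among 15890 genes. On GRCm38 the Hoxa cluster lies on the minus strand of chromosome 6 and holds 11 genes. The other clusters lie on the plus strand, Hoxb at chr11:96194316-96368256 with 10 genes, Hoxc at chr15:102921103-103036852 with 9 and Hoxd at chr2:74668310-74765142 with 9.

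As background, Hox genes are switched on in the embryo in the order in which they lie along their cluster, so that low-numbered groups reach into the head and neck and high-numbered groups are limited to the rear of the body and the limbs. In the limb, groups 9 and 10 act mainly in the upper segment, group 11 in the middle segment, and groups 12 and 13 in the foot. Adult muscle and connective tissue cells are known to keep part of this code. The proteins bind DNA together with homeodomain partners of the TALE class (Pbx, Meis and Pknox proteins), and Polycomb and Trithorax complexes keep the clusters silent or active.

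The libraries were made from muscle stem cells sorted by flow cytometry out of the tibialis anterior, gastrocnemius and quadriceps, which are muscles of the hind limb. The mice were C57BL/6J, 2 to 3 months old, and either wild type or Sestrin1,2 knockout; Sestrins are stress-response proteins that restrain the growth kinase mTORC1. For each genotype there were 2 libraries before injury (day 0), 2 at day 7 and 2 at day 21 after it, which makes 12 libraries in 6 groups; the labels do not name the kind of injury. The cDNA was made with SMART-Seq v4 and the libraries with Nextera XT, and reads were single and 76 bases long. Nothing in the labels says that the 2 libraries of a group came from separate mice, so p-values measure the spread between these libraries, which may be technical.

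Total estimated counts ran from 28396862 to 38950614 per library, and the 39 Hox genes together took between 3516 and 7197 of them. Sesn2, one of the deleted genes, was at 19.1 to 30.7 TPM (a level per transcript length, scaled to the library) in the wild-type libraries of days 0 and 7 and at 0.791 to 2.65 TPM in the knockout libraries. At day 21 it went against the labels: the library labelled wild type replicate 1 had 3.37 TPM and that labelled knockout replicate 2 had 45.7 TPM, while the other two had 34.1 (wild type) and 3.87 TPM (knockout). Sesn1, the other deleted gene, was present in every library: it was at 30.6 to 45.3 TPM in the wild-type libraries of days 0 and 7 and at 10.5 to 21.1 TPM in the knockout ones, without overlap. At day 21 Sesn1 was at 18.5 and 39.9 TPM in the libraries labelled wild type and at 19.3 and 34.9 TPM in those labelled knockout. The labels do not say which part of either gene was deleted, so reads from outside it cannot be told apart from an intact transcript. Genotype comparisons at day 21 therefore rest on labels that Sesn2 contradicts, whereas comparisons between days average over both genotypes of a day. Every comparison takes its spread from the fit of all 12 libraries, so the doubtful day 21 libraries enter every p-value. The part of their labels in the calls at days 0 and 7 was not tested. Pax7, which marks muscle stem cells, was present in every library (3.14 to 19.2 TPM). So were genes of other cells: Mbp of Schwann cells was at 134 to 1319 TPM and Acta2 of smooth muscle at 1932 to 7072 TPM. Dcn of fibro-adipogenic cells was at 2388 to 8071 TPM. Other markers of the same cells were lower: Sox10 was at 8.70 to 61.2, Rgs5 at 22.9 to 80.6 and Pdgfra at 3.45 to 21.3 TPM. The myeloid genes Lyz2 and Cd68 lay between 320 and 3509 and between 3.30 and 18.9 TPM in every library. The immune markers Ptprc, Itgam and Cd3e stayed at or below 3.48, 0.758 and 0.200 TPM. In such bulk samples fewer cells of a type and less RNA per cell cannot be told apart.

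Of the factors that mark limb type, those of the hind limb stood above that of the forelimb. Tbx4, the T-box factor of the hind limb, had a median of 5.57 TPM over the 12 libraries (3.75 to 12.4) and Pitx1, which specifies hind limb identity, one of 1.96 TPM (0.945 to 4.09). Tbx5, the corresponding factor of the forelimb, had a median of 0.108 TPM (0.0284 to 0.302). Isl1, which acts early in hind limb formation, had a median of 0.971 TPM (0.528 to 3.54).

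Across all 12 libraries, 15 of the 39 Hox genes had a median level of at least 1 TPM, and they lay mostly in the middle of the clusters up to group 11. The 8 genes at a median of 5 TPM or more were Hoxa10 (18.8), Hoxd8 (14.9), Hoxc10 (14.9), Hoxa7 (11.9), Hoxa9 (10.5), Hoxc6 (7.98), Hoxd9 (5.32) and Hoxa11 (5.18). Hoxd8 and Hoxc10 did not differ beyond their spread, and neither did Hoxd9 and Hoxa11, whose ranges overlapped. Between 1 and 5 TPM stood Hoxc9 (4.74), Hoxb2 (3.36), Hoxb7 (2.65), Hoxc5 (2.37), Hoxc11 (2.24), Hoxd10 (2.09) and Hoxa5 (1.75). Hoxa6 at 0.956 and Hoxc4 at 0.801 TPM were the nearest below the limit of 1 TPM. Another 17 genes had medians from 0.1 to under 1 TPM, among them Hoxa2, Hoxa3, Hoxa4, Hoxa6, Hoxa13, Hoxb3, Hoxb4, Hoxb5, Hoxb6, Hoxb9, Hoxc4, Hoxc8, Hoxc13, Hoxd3, Hoxd4 and Hoxd11. The remaining 7, which were not tested, had medians under 0.1 TPM: Hoxb1, Hoxb8, Hoxb13, Hoxc12, Hoxd1, Hoxd12 and Hoxd13, and Hoxd12 was listed at 0 in every library.

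**Figure D1:**
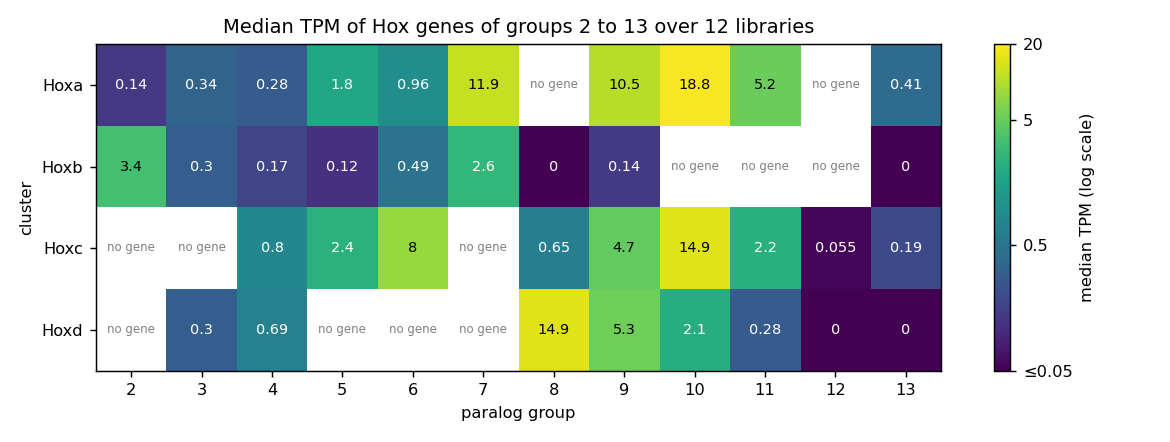
Median level of each Hox gene of groups 2 to 13 over the 12 libraries in TPM (colour on a log scale, number in the cell), with clusters as rows and paralog groups as columns; white cells are places where the mouse has no gene. Hoxa10 at 18.8 TPM is the highest, and groups 12 and 13 stay below 1 TPM in every cluster.

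Paralog group 10 held the largest part of the Hox transcripts in every library. Hoxa10, Hoxc10 and Hoxd10 together made up a median of 32.1% of the summed Hox TPM (26.1 to 34.1%), followed by group 9 with 16.7% (14.7 to 20.9%), group 8 with 13.3% and group 7 with 12.4%. Group 11 made up 5.99% (4.70 to 9.73%). The groups of the foot were close to absent, with group 12 at no more than 0.141% and group 13 at no more than 1.12% of Hox TPM in any library. Groups 2 to 4 of the head and neck held medians between 0.941% (group 3) and 3.13% (group 2), and Hoxb2 was the main gene of group 2. By cluster, Hoxa held 38.1 to 47.5%, Hoxc 22.2 to 33.7%, Hoxd 16.5 to 24.0% and Hoxb 2.71 to 14.3%.

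The summed Hox level was highest before injury. It lay between 133 and 147 TPM in the 4 libraries of day 0, between 91.1 and 111 TPM at day 7 and between 105 and 123 TPM at day 21, so the day 0 libraries did not overlap with those of either later day. The Hoxb cluster differed most between days: its genes summed to 16.4 to 19.4 TPM at day 0, 2.96 to 5.07 TPM at day 7 and 6.48 to 7.94 TPM at day 21. As a share of Hox TPM this was 11.5 to 14.3%, 2.71 to 4.83% and 6.14 to 6.58%. Hoxa summed to 54.9 to 60.0 TPM at day 0 and 40.0 to 52.5 TPM at day 7, and Hoxd to 24.5 to 28.1 and 16.4 to 20.8 TPM. Hoxc overlapped between these days, at 30.1 to 45.7 TPM and 30.7 to 36.5 TPM.

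**Figure D2:**
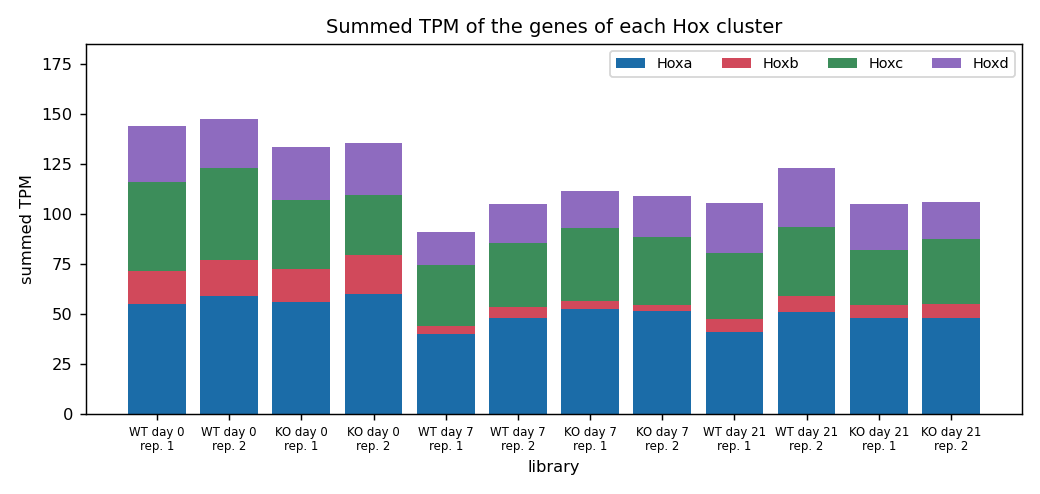
Summed TPM of the genes of each Hox cluster, stacked, in each of the 12 libraries. The Hoxb segment spans 16.4 to 19.4 TPM in the day 0 libraries and 2.96 to 5.07 TPM in those of day 7.

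At day 7 most Hox genes that changed were lower than at day 0, those of Hoxb most of all. Hoxb5, Hoxb6, Hoxb2, Hoxb9 and Hoxb7 fell by 2.21 to 2.99 on the log2 scale, and Hoxd10, Hoxa11 and Hoxc5 by 1.20 to 1.69. Hoxa10, the most abundant Hox gene, fell by 0.59, and Hoxa4, a gene of the neck and upper trunk, was the single one that rose. With edgeR's quasi-likelihood test, averaged over genotypes, 17 of 32 tested Hox genes passed an adjusted p of 0.05, 16 lower and 1 higher. Over all genes tested 57.4% passed, 26.2% lower and 31.2% higher. Without adjustment 18 Hox genes were under 0.05 (61.9% of all genes), and for 18 the 4 libraries of one day did not overlap in CPM (counts scaled to library size) with those of the other (46.2% of all genes). The share of Hox genes called was thus near that of all genes, and the direction was not: the median log2 change was -0.63 over the tested Hox genes and 0.05 over all genes. By cluster, 6 of 7 tested Hoxb genes and 5 of 6 Hoxd genes fell, against 3 of 11 Hoxa genes and 2 of 8 Hoxc genes. Under every alternative setting that gave a value, a fold threshold aside, 11 of the 17 calls kept their direction and stayed under the adjusted p threshold. Of these 11, Hoxa10, Hoxc6 and Hoxd9 changed by less than 1 on the log2 scale and would miss a fold threshold of 1.

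**Figure D3:**
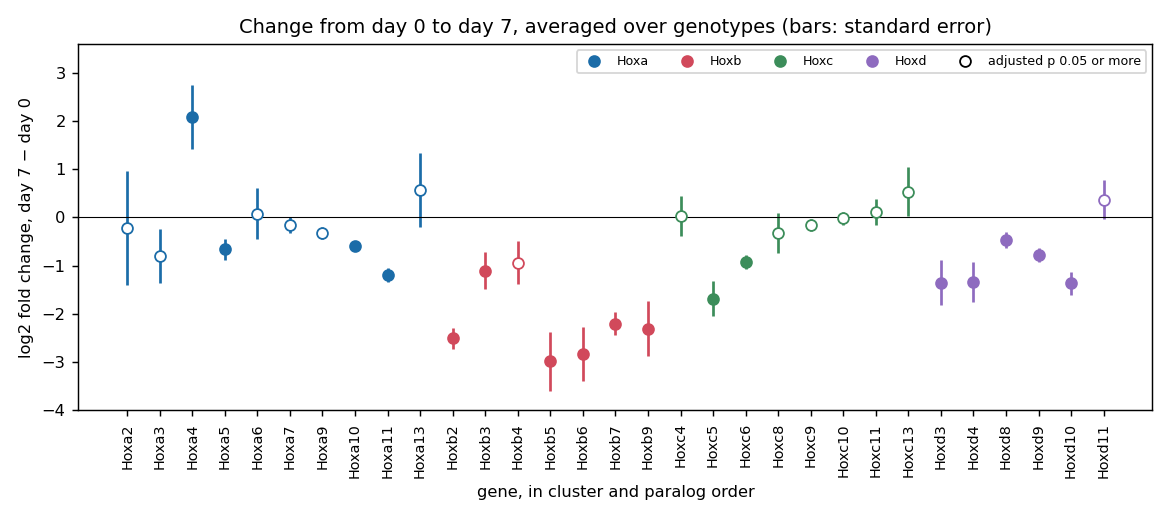
Log2 fold change from day 0 to day 7, averaged over genotypes, for the tested Hox genes of groups 2 to 13 in cluster and paralog order; bars are standard errors from edgeR and filled points are genes with an adjusted p under 0.05. The Hoxb genes other than Hoxb3 and Hoxb4 lie between -2.21 and -2.99, and Hoxa4 at 2.08 is the only filled point above 0.

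In what follows, the 4 TPM values of a day are those of wild type replicates 1 and 2 and then knockout replicates 1 and 2. Whether the libraries of a gene overlapped is given in TPM unless CPM is named, while the counts of genes without overlap are all in CPM, and the scales differ for some genes. Hoxb2, known for its role in the hindbrain and its neural crest, was at 7.32, 7.95, 7.56 and 8.48 TPM on day 0, 1.37, 2.11, 1.76 and 1.08 on day 7, and 3.50, 3.45, 3.26 and 2.64 on day 21. The 3 days did not overlap and both genotypes went the same way. Hoxb2 fell by 2.51 (log2, SE 0.218, edgeR adjusted p 4.74e-06) at day 7, rose again by 1.11 (SE 0.215, adjusted p 0.00128) from day 7 to day 21, and remained 1.40 below day 0 (log2 fold change -1.40, SE 0.208, adjusted p 4.05e-04). Hoxb7, a trunk gene, was at 5.18, 6.63, 6.27 and 8.56 TPM on day 0, 1.92, 2.04, 1.31 and 1.25 on day 7, and 1.89, 3.16, 2.14 and 3.32 on day 21. All day 0 libraries stood above all later ones, while days 7 and 21 overlapped in TPM but not in CPM, where day 21 was the higher. Its log2 fold changes were -2.21 at day 7 (SE 0.235, adjusted p 1.99e-05) and -1.43 at day 21 (SE 0.227, adjusted p 6.16e-04), and 0.78 from day 7 to day 21 (SE 0.233, adjusted p 0.0152). That last call was lost without the day 21 library labelled knockout replicate 2 (adjusted p 0.0508) or wild type replicate 2 (0.0519).

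Hoxb6, another trunk gene, was at 1.43, 1.76, 1.16 and 1.03 TPM on day 0, 0.0316, 0.235, 0.456 and 0.250 on day 7, and 0.520, 0.560, 0.138 and 0.372 on day 21. Every later library stood below every day 0 library. The log2 fold changes of Hoxb6 were -2.84 at day 7 (SE 0.557, adjusted p 0.00136) and -1.99 at day 21 (SE 0.534, adjusted p 0.0118). Hoxb5, expressed at the level of the neck in the embryo, was at 0.494, 0.306, 0.218 and 0.132 TPM on day 0, 0.0130, 0.0445, 0.0417 and 0.0171 on day 7, and 0.177, 0.120, 0.115 and 0.0794 on day 21. Days 0 and 7 did not overlap, but the day 7 values rest on 1 to 3 counts per library. Hoxb5 fell by 2.99 (SE 0.611, adjusted p 0.00177) at day 7. Hoxb9, a gene of the lower trunk, was at 0.502, 0.201, 0.302 and 0.193 TPM on day 0, 0.0824, 0.0468, 0.0506 and 0.0867 on day 7, and 0.0359, 0.0839, 0.188 and 0.237 on day 21. Its day 7 libraries, with 3 to 5.03 counts each, were all below those of day 0, and the fall was 2.31 (SE 0.576, adjusted p 0.00578). Hoxb3 was at 0.984, 0.598, 0.297 and 0.289 TPM on day 0, 0.373, 0.381, 0.203 and 0.162 on day 7, and 0.179, 0.304, 0.441 and 0.106 on day 21. These days overlapped in TPM, though in CPM every day 7 library was below every day 0 library, and its falls of 1.10 at day 7 (adjusted p 0.0323) and 1.37 at day 21 (0.0171) were lost on leaving out single libraries: the first without any of 7 libraries of those days (adjusted p up to 0.0840, without knockout replicate 1 of day 7), the second without wild type replicate 1 of day 0 (0.0536) or the day 21 library labelled knockout replicate 2 (0.0612). Hoxb4 did not pass (day 7 log2 fold change -0.93, SE 0.442, adjusted p 0.0952).

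Antisense transcripts limit 2 of these genes. The library kit marks no strand, and by 31-base words of the GENCODE M21 transcripts 26.5% of Hoxb2 and 52.1% of Hoxb3 sequence is shared with the antisense gene Hoxb3os, so that their reads cannot be told apart there. The same held for 33.9% of Hoxa11 (Hoxa11os), 20.5% of Hoxa7 (mainly Hoxaas3), 61.2% of Hoxd3 and 49.1% of Hoxd4 (both mainly with the overlapping Gm28230), and these values are uncertain to that extent. Of Hoxa10, Hoxd8 and Hoxb7 less than 1% was shared (0, 0.0700 and 0.660%).

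Among genes of the Hoxa and Hoxd clusters that pattern the limb, Hoxa10, Hoxa11, Hoxd9 and Hoxd10 fell at day 7, and all but Hoxa10 rose from there to day 21. With the Hoxc genes, groups 9 to 11 held 9 tested genes besides Hoxb9: these 4 were lower at day 7, beside 26.2% of all genes. Hoxa9 (log2 fold change -0.32, adjusted p 0.0522), Hoxd11 (0.37, adjusted p 0.470), Hoxc9 (-0.16, adjusted p 0.321), Hoxc10 and Hoxc11 (0.12, adjusted p 0.741) did not pass. The upstream sequence of the 4 is given because they were called lower at day 7. Each is a window of 200 bases from 250 to 51 before a RefSeq transcription start on GRCm38.p6, read 5′ to 3′ along the gene, with CG dinucleotides, the sites of DNA methylation, in capitals; Hoxa10 has 2 such starts. The windows lie at chr6:52234990-52235189 and chr6:52240905-52241104 (Hoxa10, minus strand), chr6:52245861-52246060 (Hoxa11, minus strand), chr2:74697513-74697712 (Hoxd9, plus strand) and chr2:74691641-74691840 (Hoxd10, plus strand).
Hoxa10 (downstream start): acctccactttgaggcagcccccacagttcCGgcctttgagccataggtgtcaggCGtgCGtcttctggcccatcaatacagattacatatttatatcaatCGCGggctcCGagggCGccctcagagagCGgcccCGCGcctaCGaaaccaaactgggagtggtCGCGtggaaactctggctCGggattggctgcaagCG
Hoxa10 (upstream start): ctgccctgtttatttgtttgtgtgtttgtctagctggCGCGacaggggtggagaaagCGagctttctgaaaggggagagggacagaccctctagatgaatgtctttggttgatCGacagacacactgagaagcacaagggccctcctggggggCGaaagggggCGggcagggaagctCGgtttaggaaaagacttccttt
Hoxa11: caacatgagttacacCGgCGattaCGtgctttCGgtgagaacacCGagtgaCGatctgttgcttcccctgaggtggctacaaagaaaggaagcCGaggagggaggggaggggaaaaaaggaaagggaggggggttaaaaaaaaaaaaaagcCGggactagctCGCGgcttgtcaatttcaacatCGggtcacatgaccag
Hoxd9: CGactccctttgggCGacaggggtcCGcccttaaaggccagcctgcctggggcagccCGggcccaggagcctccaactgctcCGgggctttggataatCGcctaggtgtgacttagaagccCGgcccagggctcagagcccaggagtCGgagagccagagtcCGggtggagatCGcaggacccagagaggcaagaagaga
Hoxd10: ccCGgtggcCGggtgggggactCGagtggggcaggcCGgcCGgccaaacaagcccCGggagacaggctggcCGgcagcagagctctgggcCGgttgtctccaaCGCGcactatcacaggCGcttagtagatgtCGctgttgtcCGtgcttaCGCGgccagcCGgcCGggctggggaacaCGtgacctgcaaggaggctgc
These windows hold 15 and 7 (Hoxa10), 11 (Hoxa11), 10 (Hoxd9) and 18 (Hoxd10) CG dinucleotides. The RefSeq table matched 22 of the 39 Hox genes with 24 windows, whose CG counts had a median of 11 (2 to 26), against a median of 4 over all 32851 windows of that length. The letters TGATNNAT, which a Hox protein with a Pbx partner can bind, were searched on both strands and may overlap other motifs. They were found in 3 of the 24 Hox windows, in none of the 5 printed ones, and in 6.44% of all windows; a match is a description of letters only.

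Hoxa10, which acts in the upper hind limb and at lumbar level, was at 25.7, 25.1, 19.3 and 21.5 TPM on day 0, 16.2, 16.6, 18.9 and 18.1 on day 7, and 16.4, 20.5, 18.7 and 17.5 on day 21. Every day 0 library exceeded every day 7 library, and day 21 overlapped with both. Its log2 fold change was -0.59 at day 7 (SE 0.0902, adjusted p 2.46e-04) and -0.39 at day 21 (SE 0.0901, adjusted p 0.00564). Hoxd10, its paralog in the Hoxd cluster, was at 2.45, 2.35, 2.00 and 2.23 TPM on day 0, 0.851, 1.03, 1.27 and 0.814 on day 7, and 2.17, 1.71, 2.67 and 2.34 on day 21. The day 7 libraries were below all others, while days 0 and 21 overlapped. Hoxd10 fell by 1.36 (SE 0.239, adjusted p 6.59e-04) and then rose by 1.23 (SE 0.239, adjusted p 0.00132). Hoxc10, which is found in the hind limb and at lumbar level, was at 15.6, 18.2, 13.6 and 11.8 TPM on day 0, 14.1, 16.6, 17.7 and 17.3 on day 7, and 17.3, 12.6, 14.3 and 13.7 on day 21. Its libraries overlapped on all days and no change was detected (day 7 log2 fold change -0.02, SE 0.135, adjusted p 0.925). The 3 genes of group 10 thus did not share one course.

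Hoxa11, required for the middle segment of the limb, was at 6.43, 6.53, 5.14 and 5.21 TPM on day 0, 2.19, 2.74, 3.94 and 2.75 on day 7, and 4.56, 5.48, 6.48 and 6.97 on day 21. All 4 day 7 libraries lay below all 8 others. Hoxa11 fell by 1.20 (SE 0.146, adjusted p 5.07e-05) and rose by 1.10 from day 7 to day 21 (SE 0.145, adjusted p 1.01e-04). Hoxd11, its paralog, was much lower, at 0.120, 0.154, 0.248 and 0.117 TPM on day 0, 0.214, 0.152, 0.432 and 0.307 on day 7, and 0.643, 0.354, 0.509 and 0.800 on day 21. Day 21 was above day 0 in every library, with 20.2 to 44.3 counts against 8.16 to 17.2. Hoxd11 rose by 1.26 from day 0 to day 21 (SE 0.410, adjusted p 0.0290), a call that any of 5 single libraries of those days removed (adjusted p up to 0.101, without the day 21 library labelled knockout replicate 2). Hoxc11, the third member of this group, had a median of 2.24 TPM (1.05 to 3.42) and passed no test. Hoxa13 of the foot stayed between 0.0169 and 0.899 TPM.

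In group 9, Hoxd9 was at 5.40, 5.64, 5.24 and 5.22 TPM on day 0, 4.18, 3.87, 3.04 and 3.28 on day 7, and 7.08, 5.40, 5.92 and 5.76 on day 21. Day 7 was below both other days in every library. Hoxd9 fell by 0.77 (SE 0.143, adjusted p 9.38e-04) and rose by 0.84 (SE 0.143, adjusted p 5.66e-04). Hoxa9, also known as a regulator of blood progenitors and described in aged muscle stem cells, was at 11.1, 11.7, 10.9 and 11.2 TPM on day 0, 9.46, 9.12, 9.70 and 14.0 on day 7, and 7.35, 9.99, 8.51 and 11.1 on day 21. The libraries of day 0 lay close together and overlapped in TPM with those of both later days, while in CPM every day 21 library was below them. Hoxa9 did not pass at day 7 (log2 fold change -0.32, SE 0.127, adjusted p 0.0522). At day 21 it was lower by the test (log2 fold change -0.57, SE 0.128, adjusted p 0.00480). The day 21 call was lost with limma on log2(TPM + 1) (adjusted p 0.142). Hoxc9, which sets the thoracic limit of limb motor neurons, was at 6.13, 6.43, 4.08 and 3.29 TPM on day 0, 5.32, 4.68, 4.83 and 4.79 on day 7, and 4.25, 4.88, 3.75 and 3.36 on day 21. The days overlapped, and its fall of 0.35 at day 21 (SE 0.127, adjusted p 0.0458) was lost in 17 of 22 alternative settings, on leaving out any library but the day 21 library labelled knockout replicate 1 among them (highest adjusted p 0.192).

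Outside Hoxb, the genes of groups 5 to 8, which pattern the trunk, that fell at day 7 were Hoxc5, Hoxc6, Hoxa5 and Hoxd8. Hoxc6, a gene of the thoracic region and the limb, was at 11.7, 12.7, 10.8 and 8.88 TPM on day 0, 5.08, 6.22, 8.55 and 6.83 on day 7, and 7.41, 8.90, 4.66 and 6.15 on day 21. Day 7 lay below day 0 in every library, and 1 day 21 library reached the lowest of day 0 in TPM, though none did in CPM. Its log2 fold changes were -0.92 at day 7 (SE 0.142, adjusted p 2.77e-04) and -0.83 at day 21 (SE 0.142, adjusted p 9.26e-04). Hoxc5, its neighbour, was at 5.71, 3.04, 2.71 and 3.87 TPM on day 0, 1.59, 0.834, 2.09 and 0.478 on day 7, and 0.858, 2.66, 2.03 and 4.11 on day 21. The day 7 libraries were below those of day 0 and spread widely, and 4.55% of its sequence is shared, nearly all with Hoxc10. Hoxc5 fell by 1.69 (SE 0.364, adjusted p 0.00243).

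Hoxd8, the only well expressed gene of group 8, was at 18.6, 15.2, 17.4 and 17.2 TPM on day 0, 10.6, 13.7, 13.0 and 15.5 on day 7, and 14.7, 20.8, 12.7 and 7.90 on day 21. The days overlapped in TPM and day 21 spread most, while in CPM every day 7 library was below every day 0 library. Its falls of 0.46 at day 7 (adjusted p 0.0399) and 0.53 at day 21 (0.0300) were lost without single libraries (adjusted p up to 0.121 without knockout replicate 1 of day 7, and up to 0.0963 without wild type replicate 1 of day 0). Hoxa7, a trunk gene, was at 8.02, 12.9, 15.1 and 17.3 TPM on day 0, 8.31, 15.4, 15.9 and 13.0 on day 7, and 8.87, 10.8, 10.2 and 8.50 on day 21. The days overlapped, and the fall of 0.58 at day 21 (SE 0.167, adjusted p 0.0160) was lost without any of 3 libraries (adjusted p up to 0.0734, without wild type replicate 2 of day 0). Hoxa5, a gene of the neck and shoulder, was at 2.17, 1.86, 2.09 and 2.23 TPM on day 0, 1.21, 1.64, 1.77 and 1.38 on day 7, and 1.66, 1.52, 1.98 and 1.74 on day 21. Day 7 lay below day 0, and the fall of 0.66 (SE 0.219, adjusted p 0.0255) was lost without any of 5 libraries (adjusted p up to 0.0880, without wild type replicate 1 of day 7). Hoxa6 and Hoxc8, with medians of 0.956 and 0.651 TPM, passed no test.

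Among the genes of groups 3 and 4, Hoxb3, Hoxd3 and Hoxd4 fell at day 7 and Hoxa4 rose, while Hoxa3, Hoxb4 and Hoxc4 did not pass. Hoxa4 was at 0.225, 0.330, 0.171 and 0.0340 TPM on day 0, 0.872, 0.878, 0.899 and 0.691 on day 7, and 0.0273, 0.236, 0.391 and 0.130 on day 21. All 4 day 7 libraries stood above all 8 others, on 21 to 35 counts against 1 to 14. Hoxa4 rose by 2.08 (SE 0.659, adjusted p 0.0200) at day 7 and fell by 2.10 from there to day 21 (SE 0.657, adjusted p 0.0193), and 14.4% of its sequence is shared with the overlapping Gm29430. The rise was lost without knockout replicate 2 (adjusted p 0.0796), wild type replicate 1 (0.0762) or wild type replicate 2 (0.0534) of day 0, and the later fall without the day 21 libraries labelled knockout replicate 2 (0.0708) or wild type replicate 1 (0.0526). Hoxd4 was at 0.711, 0.803, 1.12 and 1.17 TPM on day 0, 0.292, 0.299, 0.388 and 0.680 on day 7, and 0.696, 0.433, 0.690 and 0.699 on day 21. Day 0 stood above both later days, though in CPM it overlapped with day 21, and Hoxd4 fell by 1.34 at day 7 (SE 0.411, adjusted p 0.0169), a call lost without wild type replicate 2 of day 0 (0.0542) or knockout replicate 1 of day 7 (0.0531). Hoxd3 was at 0.857, 0.334, 0.354 and 0.256 TPM on day 0, 0.198, 0.272, 0.166 and 0.0677 on day 7, and 0.174, 0.600, 0.445 and 0.728 on day 21. Days 0 and 7 overlapped slightly in TPM and not in CPM, and the fall of 1.35 at day 7 (adjusted p 0.0295) and rise of 1.39 to day 21 (adjusted p 0.0259) were both lost without single libraries (adjusted p up to 0.0985 without wild type replicate 1 of day 0 and up to 0.113 without wild type replicate 2 of day 21). Hoxa2, Hoxa3 and Hoxc4 passed no test, as did Hoxb4, and did not exceed 1.58 TPM in any library.

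At day 21 fewer Hox genes differed from day 0 than at day 7 did, and most were lower. The 10 that were lower were Hoxb2, Hoxb3, Hoxb6, Hoxb7, Hoxa7, Hoxa9, Hoxa10, Hoxc6, Hoxc9 and Hoxd8, with falls of 0.35 (Hoxc9) to 1.99 (Hoxb6). Hoxd11 and Hoxc13 were called higher. These 12 of 32 stand beside 45.9% of all genes, 20.8% lower and 25.0% higher. Without adjustment 15 Hox genes were under 0.05 (52.7% of all genes), and the libraries of 8 did not overlap in CPM (30.6% of all genes). The median log2 change was -0.36 over Hox genes and 0.02 over all genes. Of the 12 calls, 5 held under every alternative setting that gave a value, a fold threshold aside (Hoxa10, Hoxb2, Hoxb6, Hoxb7 and Hoxc6). Of these 5, Hoxa10 and Hoxc6 changed by less than 1 on the log2 scale and would miss a fold threshold of 1. Some of the 12 calls were lost without the day 21 library labelled knockout replicate 2. The fitted value for Hoxc13 (2.87) depends on the prior count of the fit, since the 2 knockout libraries of day 0 had no count. Its mean over the 4 libraries of a day was 1.01 CPM at day 0 and 0.629 CPM at day 21, and its direction reversed on other scales.

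From day 7 to day 21, 8 Hox genes rose and 1 fell. The genes that rose were Hoxa11, Hoxd9, Hoxd10, Hoxd3, Hoxb2, Hoxb5, Hoxb7 and Hoxc13, and the one that fell was Hoxa4. Hoxb5 (log2 fold change 1.75, SE 0.638, adjusted p 0.0373) rests on 1 to 3 counts per library at day 7 and 3 to 8 at day 21 and kept its call in 3 of 18 alternative settings. The 9 calls stand beside 56.8% of all genes, 28.4% in each direction, with 12 Hox genes under 0.05 before adjustment (61.2% of all genes) and 9 whose libraries did not overlap in CPM (46.4%). The median log2 change was 0.29 over Hox genes and 0.01 over all genes. The comparisons of days share libraries: days 7 and 21 were both set against the same day 0 libraries, and day 21 against the same day 7 libraries.

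Markers of other cells moved between the days alongside the Hox genes; their counts stand beside 31.2% of all genes higher and 26.2% lower at day 7 against day 0, and 28.4% each from day 7 to day 21. The 5 Schwann cell markers summed to 1709 to 2120 TPM at day 0, 235 to 351 at day 7 and 637 to 979 at day 21; 5 of 5 were lower at day 7 than at day 0, and 5 of 5 higher at day 21 than at day 7. The 5 smooth muscle and pericyte markers summed to 5091 to 7774, 2164 to 3183 and 2715 to 4039 TPM, with 4 of 5 lower and 1 higher at day 7. The 7 fibro-adipogenic markers went from 5510 to 7874 TPM at day 0 to between 11879 and 13966 at day 7 and between 9004 and 12533 at day 21, with 5 of 7 higher and 1 lower at day 7. The 6 muscle fibre markers went from 41.3 to 70.0 TPM to between 1713 and 3511 and then between 184 and 460, with 6 of 6 higher at day 7. The 9 muscle stem cell markers summed to 638 to 892, 1033 to 1341 and 1205 to 1580 TPM, with 5 of 9 higher and none lower at day 7. The 6 endothelial markers summed to 65.4 to 84.8, 37.9 to 109 and 68.0 to 112 TPM, with 0 higher and 2 lower at day 7. The immune markers summed to 2031 to 3513, 333 to 495 and 705 to 1016 TPM, nearly all of it Lyz2, with 3 of 4 tested higher and 1 lower. Sox10, which defines Schwann cells, was above 0 in every library. The part of these other cells in the Hox changes was not tested.

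Between genotypes at day 0, 3 Hox genes were lower in the knockout libraries: Hoxa10, Hoxc9 and Hoxc13. The day 0 levels of Hoxa10 were 25.7 and 25.1 TPM in wild type and 19.3 and 21.5 TPM in knockout, without overlap, and its log2 fold change was -0.44 (SE 0.127, edgeR adjusted p 0.0275; 34.9 against 25.7 CPM). Hoxc9 was at 6.13 and 6.43 against 4.08 and 3.29 TPM, again without overlap, with a log2 fold change of -0.80 (SE 0.180, adjusted p 0.00972). Both calls depended on single libraries. The Hoxa10 call was lost without knockout replicate 1 (adjusted p 0.168), knockout replicate 2 (0.0811), wild type replicate 1 (0.126) or wild type replicate 2 (0.114) of day 0, and the Hoxc9 call without knockout replicate 2 (0.0956) or wild type replicate 2 (0.0748).

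The count of 3 of 32 stands below the share called among all genes, which was 27.4%, with 12.6% lower and 14.8% higher. Of the Hox genes 3 were lower and 0 higher; 7 were under 0.05 before adjustment (40.2% of all genes), and for 25 the 2 libraries of one genotype lay wholly above or below those of the other in CPM (75.1% of all genes). The median log2 difference was -0.36 over Hox genes and 0.00 over all genes. The number called was 5 of 32 when the day 21 libraries were left out of the fit and 9 of 31 with the 4 day 0 libraries alone. With limma on the authors' batch-corrected values it was 11 of 38. All genes called rose as well, from 4356 in the main fit to 6091, 7317 and 5582 in these fits. Summed levels of cell type markers, which were not tested as sums, are given for this day beside the calls of single markers (14.8% of all genes higher and 12.6% lower). The muscle stem cell markers summed to 892 and 871 TPM in wild type and 640 and 638 in knockout, with 6 of 9 lower in knockout and 0 higher. Fibro-adipogenic markers summed to 7874 and 7741 against 5510 and 5526 TPM (0 of 7 higher, 2 lower), and muscle fibre markers to 64.8 and 70.0 against 41.3 and 45.2 TPM (0 of 6 higher, 3 lower). The sums were higher in knockout for smooth muscle and pericyte markers, at 5093 and 5091 against 7774 and 7748 TPM (4 of 5 higher, 0 lower), and for Schwann markers, at 1709 and 1783 against 2075 and 2120 TPM (1 of 5 higher, 0 lower). The immune sum, nearly all of it Lyz2, was also higher in knockout, at 2031 and 2047 against 3513 and 3405 TPM. The median log2 difference over the 4 tested immune markers went the other way, at -0.54, and 0 of the 4 were called. Endothelial markers summed to 79.2 and 65.4 against 84.8 and 81.3 TPM (1 of 6 higher, 0 lower), a difference smaller than the gap between the wild-type libraries. The part of these cells in the Hox differences was not tested.

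Hoxc13, which drives hair keratin genes in the hair follicle, showed the widest gap between genotypes. Before injury the wild-type libraries held 63 and 78 counts of it (1.06 and 1.10 TPM), the knockout libraries none. Against a floor of 3 counts per library (0.101 CPM), the wild-type mean of 2.01 ± 0.0632 CPM (SD, n = 2) puts the knockout level at least 20.0-fold lower (edgeR adjusted p 0.00137). At later days it was at 0.149 and 0.0986 TPM in wild type and 0.0154 and 0.0788 TPM in knockout (day 7), and at 0.344, 0.477, 0.426 and 0.234 TPM in the libraries of day 21. The genotypes did not overlap at days 0 and 7, and overlapped at day 21. The difference at day 0 was called in every alternative setting that gave a value. Keratins of the skin moved with it. The 6 skin keratins Krt1, Krt5, Krt10, Krt14, Krt17 and Krt79 summed at day 0 to 180.5 and 197.3 TPM in wild type and to 2.37 and 2.70 TPM in knockout, 5 of 5 tested keratins were lower in knockout, and Krt5, Krt14 and Krt17 were listed at 0 in both knockout libraries. At day 7 the sum was 4.24 to 15.9 TPM and at day 21 it was 22.8 to 102 TPM. The part of skin transcripts in the Hoxc13 difference was not tested.

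**Figure D4:**
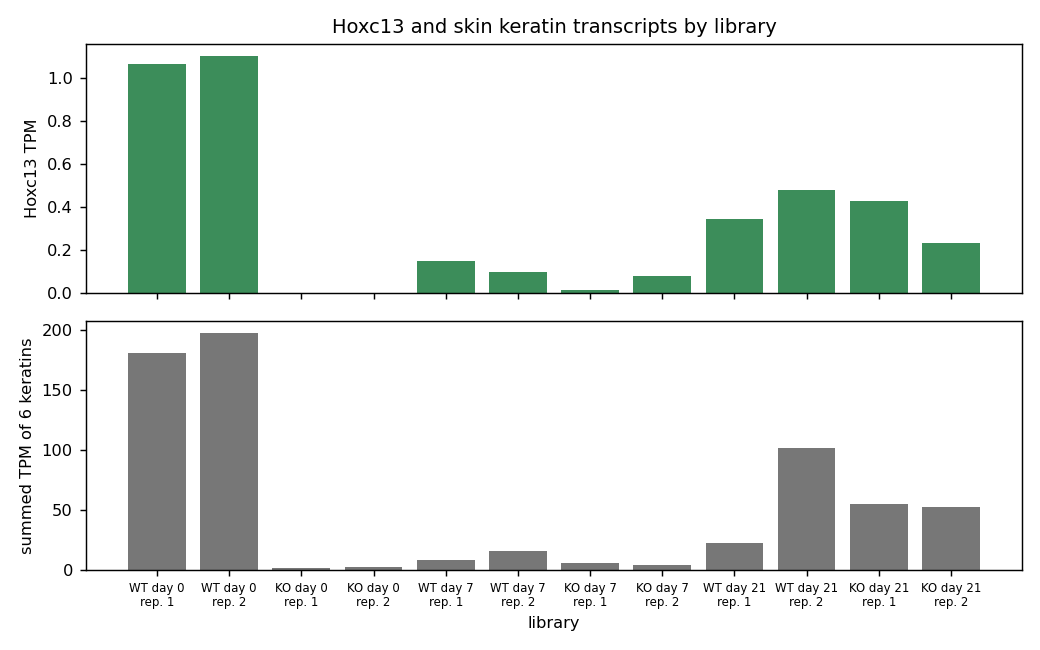
TPM of Hoxc13 (top) and summed TPM of 6 skin keratins (bottom) in each of the 12 libraries, named by their labels. Both are high in the 2 wild-type libraries of day 0 (Hoxc13 1.06 and 1.10 TPM) and Hoxc13 is 0 in the 2 knockout libraries of that day.

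At days 7 and 21 no Hox gene passed between genotypes. At day 7, 0 of 32 passed with edgeR (1.76% of all genes, 1.08% higher and 0.680% lower), 2 were under 0.05 before adjustment (Hoxa11 and Hoxc6, both higher in knockout; 14.3% of all genes), and the libraries of 14 did not overlap in CPM (47.4%). At day 21, 0 of 32 passed (0.0126% of all genes, 0.00629% in each direction), 2 were under 0.05 before adjustment (Hoxc6 and Hoxc9, both lower in the libraries labelled knockout; 14.2%), and the libraries of 12 did not overlap in CPM (38.0%). The 2 genes named for each day were chosen after their values were seen. With every day 21 library left out of the fit, 0 of 32 Hox genes passed between genotypes at day 7. Of all genes 1169 then did, against 280 in the main fit. Leaving out the 2 day 21 libraries whose Sesn2 goes against the label left 1 library per genotype, assumed to vary like the other groups; 0 of 33 Hox genes then passed and 1200 of all genes did, and this count does not show that Hox levels were alike.

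The change from day 0 to day 7 differed between genotypes for 3 of 32 Hox genes, Hoxa10, Hoxc6 and Hoxc13. This test shares its day 0 libraries with the comparison of genotypes at day 0, in which Hoxa10 and Hoxc13 were also called. Hoxa10 and Hoxc6 were lower at day 7 than at day 0 in the wild-type libraries, by more than in the knockout ones, while Hoxc13 was lower at day 7 in the wild-type libraries and had no count at day 0 in the knockout ones. Across all genes 13.5% passed this test, 6.08% higher and 7.39% lower; 7 Hox genes were under 0.05 before adjustment (29.2% of all genes). Hoxa10 went from 25.7 and 25.1 to 16.2 and 16.6 TPM in wild type and from 19.3 and 21.5 to 18.9 and 18.1 TPM in knockout (difference of log2 changes 0.69, SE 0.180, adjusted p 0.0335). Hoxc6 went from 11.7 and 12.7 to 5.08 and 6.22 TPM in wild type and from 10.8 and 8.88 to 8.55 and 6.83 TPM in knockout (0.97, SE 0.282, adjusted p 0.0470). For both, the genotypes differed less at day 7 than the wild type differed between its days. The fitted difference for Hoxc13 (7.72, SE 1.67, adjusted p 0.0199) depends on the absence of counts in knockout at day 0. None of the 3 calls survived every alternative. All 3 were lost on leaving out any single day 0 library or wild type replicate 2 of day 7, and most on leaving out any other day 7 library. With the libraries of days 0 and 7 alone 5 Hox genes were called, and 3887 of all genes against 2141 in the main fit.

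The counts given next for lists of related genes stand beside these shares of all genes: 31.2% higher and 26.2% lower at day 7 against day 0, 25.0% and 20.8% at day 21 against day 0, and 28.4% each from day 7 to day 21. Between genotypes the shares were 14.8% higher and 12.6% lower at day 0, 1.08% and 0.680% at day 7, and 0.00629% each at day 21. Among partners of the Hox proteins, those that passed at day 7 rose. Of 9 TALE cofactors, all tested, 5 were higher and 0 lower at day 7 than at day 0 (57.4% of all genes passed), with a median log2 change of 0.25. Pknox2, a TALE partner, was at 12, 11.1, 8.65 and 8.52 TPM on day 0 and 33.5, 29.7, 21.2 and 16.1 on day 7, without overlap, and rose by 1.16 (SE 0.0936, adjusted p 2.84e-06). Pbx3, a DNA-binding partner, was at 2.55, 3.31, 8.17 and 8.78 TPM on day 0, so that it stood higher in knockout there (log2 fold change 1.34, SE 0.188, adjusted p 0.00119). At day 21 against day 0, 4 cofactors were higher, Pknox1 among them (0.73, adjusted p 3.16e-05), and 1 was lower. From day 7 to day 21, 2 rose and 4 fell. Between genotypes 1 was higher and 2 lower at day 0, 0 and 1 at day 7, and 0 and 0 at day 21.

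Of 30 Polycomb genes, which keep Hox clusters silent, 12 were higher and 10 lower at day 7 than at day 0, beside 31.2% and 26.2% of all genes. Cbx7, which reads the repressive histone mark, fell by 1.49 (SE 0.0938, adjusted p 5.19e-07), whereas Suz12, a core subunit of the complex that writes the mark, rose by 0.88 (SE 0.0756, adjusted p 4.32e-06) and Pcgf3 by 0.97 (SE 0.0783, adjusted p 2.88e-06). Cbx7 went from 26.8, 28.3, 34.3 and 32.3 TPM on day 0 to 10.7, 10.9, 15.7 and 13.0 on day 7, and back to 24.4, 26.8, 27.7 and 37.3 on day 21. At day 21, 8 Polycomb genes were higher and 5 lower than at day 0, and from day 7 to day 21, 11 rose and 9 fell. In knockout 2 were higher and 6 lower at day 0, and 0 higher and 1 lower at each later day.

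Of 11 Trithorax and H3K27 demethylase genes, which keep the clusters active, 4 were higher and 1 lower at day 7, beside 31.2% and 26.2% of all genes. Ash2l and Wdr5, shared subunits of the complexes that write the active mark, rose by 0.84 (SE 0.0789, adjusted p 8.43e-06) and 0.68 (SE 0.0808, adjusted p 4.56e-05), and Kdm6b, which removes the repressive mark, fell by 0.93 (SE 0.150, adjusted p 3.86e-04). Against day 0, 5 were higher and 0 lower at day 21. From day 7 to day 21, 4 rose and 3 fell. In knockout 1 was higher and 0 lower at day 0, and 0 changed at the later days.

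Among upstream regulators, 6 of 9 were tested and 4 of them, all retinoic acid or retinoid X receptors, fell at day 7 and 0 rose, beside 26.2% and 31.2% of all genes. Retinoic acid is a known inducer of anterior Hox genes in the embryo. Rxrg was at 32.6, 34.3, 45.9 and 46.2 TPM on day 0 and 13.4, 14.0, 18.0 and 12.6 on day 7, without overlap, and fell by 1.69 (SE 0.115, adjusted p 8.77e-07). Rarb was at 7.35, 4.38, 6.80 and 5.49 TPM on day 0 and 1.08, 1.29, 3.41 and 3.36 on day 7, and fell by 1.76 (SE 0.208, adjusted p 4.16e-05). At day 21, 0 of the 6 were higher and 3 lower than at day 0, and from day 7 to day 21, 3 rose and 0 fell. In knockout 1 was higher and 0 lower at day 0 and at day 7, and 0 changed at day 21. The Cdx genes, which switch on Hox genes of the trunk in the embryo, were near absent: Cdx2 was listed at 0 in all 12 libraries, and Cdx1 and Cdx4 did not exceed 0.121 and 0.0254 TPM. Of 13 noncoding and flanking genes of the clusters 2 were in the table, Evx1 and Evx2, with at most 0.120 and 0.00981 TPM, and 0 were tested.

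Of the 4 limb type factors, Tbx4 rose by 0.92 at day 7 (SE 0.114, adjusted p 5.98e-05) and fell by 0.73 to day 21 (adjusted p 3.05e-04), while Pitx1 fell by 0.62 (SE 0.217, adjusted p 0.0319) and then rose by 1.17 (adjusted p 9.69e-04). Neither passed at day 21 against day 0 or between genotypes on any day, although the change of Pitx1 from day 0 to day 7 was higher in knockout by the test of the difference (1.52, SE 0.434, adjusted p 0.0447). Isl1 and Tbx5 passed none of the 7 tests, and Tbx5 stayed at or below 0.302 TPM.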

How the data were processed

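The authors deposited 1 table of estimated counts per gene and library, not normalized, and 1 of the same genes in TPM, per the file headers. Another deposited table holds regularised log2 values that its name calls batch-corrected; the batch is not named in the sources used here. kallisto 0.46.1 and the builds mm10 and GRCm38.p6 are listed in the submitters' processing notes, without a role.

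Estimated counts of the 12 libraries were rounded and filtered with filterByExpr by group, which left 15890 of 30154 genes. TMM factors ran from 0.915 to 1.09. A robust quasi-likelihood fit in edgeR 4.0.16 (R 4.3.3, prior count 0.125) used all 12 libraries with 1 mean per genotype and day. It gave 7 comparisons with Benjamini-Hochberg adjustment over all genes tested; a gene was called at an adjusted p under 0.05. Fold changes are on the count scale, and levels are in deposited TPM. The scripts were tested on simulated data.

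Per-library values are given for every Hox gene with a median of at least 5 TPM or called in any of the 7 comparisons. Of each gene list at most 4 genes are named, those called with the smallest adjusted p, or else those with the highest level; other markers and low genes named as checks were chosen after their values were seen. Some items are not reported here. The members and lists were chosen with earlier results of these data known. Alternatives were DESeq2 1.42.0, other size factors, other filters, a replicate block, limma 3.58.1 on log2(TPM + 1), log2(TPM + 0.1) or the deposited log2 values, a fold threshold and fits with fewer libraries. Deviations of libraries that share a replicate number correlated between -0.14 and 0.07 over 15 pairs of groups, so the numbers were not used as pairs.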

Additional observations from a re-analysis of the deposited data

Results flagged for a closer look

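For 3 Hox genes the change from day 0 to day 7 differed between genotypes by edgeR's test of the difference itself. It is not independent of the genotype comparison at day 0, which uses the same day 0 libraries and also called Hoxa10 and Hoxc13. The change in knockout minus that in wild type was 0.69 on the log2 scale for Hoxa10 (adjusted p 0.0335), 0.97 for Hoxc6 (adjusted p 0.0470) and 7.72 for Hoxc13 (adjusted p 0.0199). For Hoxa10 and Hoxc6 both day 7 libraries of each genotype lay below both of its day 0 libraries. The value for Hoxc13 rests on knockout libraries without a count at day 0. Across alternatives the adjusted p ran from 0.00667 to 0.124 for Hoxa10, from 0.0215 to 0.185 for Hoxc6 and from 0.00360 to 0.116 for Hoxc13.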

How the results depend on the processing

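For the 17 Hox genes called at day 7 against day 0, the count was 11 with at least 10 counts in every library (17 Hox genes tested). With limma it was 11 on log2(TPM + 1) and 10 on log2(TPM + 0.1), with 20 Hox genes tested. Of all genes, 9119 were called in the main fit and 8175, 8640 and 8589 in these fits, in that order. For the 12 at day 21 against day 0 it was 5 with limma on either scale (20 tested). It was 6 when a log2 fold change of 1 or more in size was required. All genes called went from 7289 to 6190 and 6162 with limma and to 1742 at the fold threshold. For the 3 of knockout against wild type at day 0 it was 9 with the libraries of the comparison alone, 5 with limma without a filter, 11 on the batch-corrected values, 5 without the day 21 libraries and 1 at the fold threshold. For the 3 whose change differed between genotypes, 2141 of all genes were called in the main fit. The count was 5 with the libraries of the comparison alone and 5 without the day 21 libraries (3887 of all genes in each). With limma it was 1 on log2(TPM + 1) (1351), 0 on log2(TPM + 0.1) (1320) and 7 on the batch-corrected values (3192). At the fold threshold it was 1 (1095). Leaving out 1 library gave 12 to 19, 7 to 13, 6 to 10 (day 21 against day 7), 1 to 5 and 0 to 4 in these comparisons, and 0 to 0 for knockout against wild type at days 7 and 21. The number of genes at a median of 1 TPM stayed at 15 in each case and was 8 at 5 TPM. With the replicate block the counts were 16, 11, 9, 3, 0, 0 and 2; the calls lost under the block were Hoxd8 at day 7 (adjusted p 0.0555), Hoxc9 at day 21 (0.0540) and Hoxc6 in the difference between genotypes (0.0640), and as the numbers do not pair the libraries these losses are not read as weaker effects.

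The 44 calls had 953 values under 23 settings, which leave out the fold threshold. Of these values 795 kept direction and side of the adjusted p threshold, 155 kept direction alone and 3 reversed. All 3 were for Hoxc13 at day 21 against day 0: -0.0776 with limma on log2(TPM + 1), with and without a filter, and -0.0740 on the batch-corrected values. Hoxc10 at day 7 (-0.02, not called) was 0.15, 0.16 and 0.15 with limma on log2 TPM, and -0.0317 with limma on the batch-corrected values. On leaving out 1 library it ran from -0.0981 to 0.0349. It was above 0 without knockout replicate 1 or wild type replicate 2 of day 0 or wild type replicate 1 of day 7. The causes were not tested. Precision is limited by 2 libraries per group and, for genes under about 1 TPM, by counts that fall to single digits per library.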
